A study of Mus musculus with 4 samples.

Results

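The adipocyte genes of marrow stroma were read in single cells of mouse bone and bone marrow. The set held 10 genes, chosen by symbol, of the 32285 genes counted: Adipoq, Pparg, Cebpa, Cebpb, Lpl, Fabp4, Cfd, Apoe, Mrap and Plin2. All 10 were found in both libraries. mRNA and CD24 surface protein were counted together by CITE-seq, in which an oligonucleotide-tagged antibody is sequenced with the transcripts of the same cell, in 1 young mouse of 6 months and 1 old mouse of 24 months. Both animals were untreated and carried the INK-ATTAC transgene, in which a p16Ink4a promoter drives an inducible caspase 8, and no animal without it was analysed here. Cells of femur and tibia were released from marrow and bone, depleted of blood lineage cells and sorted as live CD45- cells. Mature fat cells float and are easily lost from such a suspension.

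Marrow stromal cells with the leptin receptor line the sinusoids, feed blood stem cells with CXCL12 and stem cell factor, and can form both adipocytes and osteoblasts. In the textbook order of adipogenesis, C/EBPβ is induced early and turns on PPARγ and C/EBPα, which then hold each other on and drive the genes of fat storage and of adipokines. In marrow, Adipoq is known to be active in stromal cells that hold no fat droplet, which is why an adipocyte gene there does not by itself mark a fat cell.

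By the annotation of GRCm38.p6, the build that mm10 names, the regulators lie on chromosome 6 (Pparg, 115360879 to 115490404), chromosome 7 (Cebpa, 35119293 to 35121928) and chromosome 2 (Cebpb, 167688915 to 167690432). The secreted products lie on chromosome 16 (Adipoq, 23146536 to 23157968), chromosome 10 (Cfd, 79890853 to 79892655) and chromosome 7 (Apoe, 19696244 to 19701310). The genes of lipid handling lie on chromosome 8 (Lpl, 68880555 to 68906932), chromosome 3 (Fabp4, 10204342 to 10208616) and chromosome 4 (Plin2, 86626910 to 86670217), and Mrap lies on chromosome 16 (90738207 to 90749785).

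Upstream windows of 250 bases (RefSeq, GRCm38.p6) were found for 7 of the 10 genes. They are shown for Pparg, Cebpa and Adipoq, since the results below turn on these regulators and on the adipokine. Each is on the plus strand and is read 5′ to 3′ up to the base before a transcript start, and capitals mark a match to the C/EBP core TTGCNNAA or to the TATA box TATAAA, searched on both strands.
Pparg, chr6:115421816-115422065: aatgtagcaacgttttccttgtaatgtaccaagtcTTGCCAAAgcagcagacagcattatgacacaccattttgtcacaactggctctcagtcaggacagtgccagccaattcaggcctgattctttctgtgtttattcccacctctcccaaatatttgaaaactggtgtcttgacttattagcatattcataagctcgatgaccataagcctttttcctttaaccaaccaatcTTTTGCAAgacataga
Cebpa, chr7:35119043-35119292: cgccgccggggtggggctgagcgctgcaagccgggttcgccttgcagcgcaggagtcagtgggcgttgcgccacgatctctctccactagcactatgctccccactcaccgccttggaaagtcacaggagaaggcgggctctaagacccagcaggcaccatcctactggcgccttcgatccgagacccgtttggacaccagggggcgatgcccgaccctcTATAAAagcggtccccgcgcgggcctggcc
Adipoq, chr16:23146286-23146535: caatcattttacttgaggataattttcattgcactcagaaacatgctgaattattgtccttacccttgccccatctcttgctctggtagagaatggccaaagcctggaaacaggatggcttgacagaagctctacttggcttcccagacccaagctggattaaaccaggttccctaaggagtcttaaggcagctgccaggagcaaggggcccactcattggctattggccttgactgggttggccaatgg
The Pparg window, 1 of 3 listed for the gene, held 2 matches to the C/EBP core, which began 215 and 16 bases before the start. The other 2 Pparg windows, not shown, held no C/EBP match. Of all 32851 windows, 9.56% held such a match. The Cebpa window held the TATA letters 30 bases before its start, as did 12.4% of all windows somewhere in their length. The Adipoq window held neither. A 3′ library does not tell apart the transcripts of the 3 Pparg starts, so the counts below are of all of them together.

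The libraries held 10063 young and 5607 old cells after the filter, with 81076421 and 66702846 UMIs (unique molecular identifiers, 1 per captured transcript). The median cell held 6385 and 9711 UMIs, so the old cells were deeper. Levels are given as CPM, the gene's UMIs per 1000000 UMIs of the group, with exact 95% intervals that cover counting error only. They were not divided by transcript length, since 3′ UMIs count molecules, and were compared between groups and not between genes. Cells were put in groups by the number of distinct markers with a UMI, at least 3 of a list of 8 and more than of any of 13 other lists, and none of the 10 genes was a marker. Stromal-like cells (Lepr, Cxcl12, Kitl, Ebf3, Foxc1, Grem1, Il7, Vcam1) numbered 3390 in the young animal and 2114 in the old one, 33.7% and 37.7% of the cells. The other mesenchymal groups were fibroblast-like (2716 and 1200 cells), tendon-like (793 and 300), osteoblast-like (511 and 340), chondrocyte-like (131 and 34) and pericyte-like (70 and 71). All 8 stromal markers were detected in the stromal-like cells of each mouse, and 9.38% and 11.0% of those cells lay at the limit of the rule. The share at the limit was larger in the groups they were compared with, at 13.8% and 19.7% of fibroblast-like, 44.8% and 29.4% of osteoblast-like, 49.2% and 59.0% of tendon-like, 22.9% and 55.9% of chondrocyte-like and 25.7% and 28.2% of pericyte-like cells. The osteoblast list also summed to 7318 and 5201 CPM there, most of it Ibsp at 6743 and 4733. No cell joined the mature adipocyte list (Plin1, Cidec, Plin4, Lep, Retn, Adrb3, Acvr1c, Cidea), which summed to 5.57 and 7.42 CPM in stromal-like cells with Lep at 0 in both mice. The 2 libraries shared 25 barcodes, 19 of them kept.

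Adipoq, which encodes adiponectin, was a gene of the stromal-like group. Its level there was 1099 CPM (1085 to 1113) in the young animal and 1817 in the old one (1797 to 1836). In the young mouse the other groups followed at 10.9 in fibroblast-like, 4.74 in osteoblast-like, 3.45 in tendon-like, 3.33 in chondrocyte-like and 2.60 in pericyte-like cells. In the old mouse the order was 11.7 in osteoblast-like, 8.10 in fibroblast-like, 6.88 in pericyte-like, 5.85 in tendon-like and 1.97 in chondrocyte-like cells. The stromal-like interval lay far above all the others in both mice, while among the other groups neighbours in the order overlapped, except fibroblast-like above osteoblast-like cells in the young. Of all Adipoq UMIs in kept cells, 97.0% (young) and 97.8% (old) were in stromal-like cells, which held 26.6% and 27.7% of all UMIs. With all cells thinned to 2000 UMIs, 70.5% and 77.1% of stromal-like cells had an Adipoq UMI (79.3% and 79.8% unthinned, at a median of 5486 and 8480 UMIs). In erythroid-like cells, which should lack the gene, the share was 0.731% and 1.38% (4.50% and 10.5% unthinned, at 18530 and 20052 UMIs). Erythroid-like cells held 5.06 and 4.78 CPM, below fibroblast-like cells in both mice and osteoblast-like cells in the old. Those cells were shallower, with medians of 7665.5 and 12378.5 UMIs in fibroblast-like and 13367 in old osteoblast-like cells. CPM is taken per UMI and not per cell. Whether their Adipoq level lay above that of free RNA counted with the cell was therefore not tested. The intervals of the other groups overlapped the erythroid one, and whether their Adipoq counts were background was not tested either.

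Apoe, the apolipoprotein that carries lipid to its receptors, was also highest in stromal-like cells, at 3937 CPM in the young animal and 4803 in the old one. Fibroblast-like cells came next in the old mouse (1317), while in the young mouse chondrocyte-like cells (715) stood above fibroblast-like cells (540). The remaining groups lay between 75.3 and 392 in the young animal and between 155 and 386 in the old one. Erythroid-like cells held 325 and 299 CPM, above osteoblast- and pericyte-like cells in both mice and chondrocyte-like cells in the old. That erythroid-like level was a larger share of the stromal-like level than for Adipoq or Lpl, and whether it was free RNA was not tested.

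Cfd, which encodes the serine protease adipsin, was rare. Stromal-like cells held 19 Cfd UMIs in 13 cells of the young mouse (0.882 CPM, 0.531 to 1.38) and 90 in 25 cells of the old mouse (4.87, 3.92 to 5.99). Fibroblast-like cells held 148 UMIs in the young animal (6.31) and 8 in the old one (0.503), so the order of the 2 groups was opposite in the 2 mice. Of the 148 UMIs, 66 were in a single cell. The osteoblast-, tendon-, chondrocyte- and pericyte-like groups held no Cfd UMI in either mouse, which allows up to 0.511 CPM in old osteoblast-like cells and up to 7.79 in young pericyte-like cells.

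The regulators of fat cell formation differed in how far they were limited to the stroma. Pparg, the nuclear receptor that directs adipocyte formation, was at 31.7 CPM in young (29.3 to 34.1) and 53.7 in old stromal-like cells (50.4 to 57.1). Pericyte-like cells held 36.4 (19.9 to 61.0, from 14 UMIs) and 17.2 (8.25 to 31.6, from 10 UMIs), which overlapped the stromal-like interval in the young animal and lay below it in the old one. Fibroblast-like cells held 3.32 and 4.02, osteoblast-like cells 0.711 and 0.341, and chondrocyte-like cells held no UMI. Cebpa, which encodes C/EBPα, was at 142 (137 to 147) and 149 (143 to 154) in stromal-like cells. In the other groups Cebpa lay between 7.49 and 26.0 in the young animal and between 5.62 and 29.5 in the old one, with no overlap with the stromal-like cells.

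Cebpb, which encodes the early-acting C/EBPβ, was not a stromal gene. Pericyte-like cells held 1825 and 1815 CPM, above the 455 and 518 of stromal-like cells, and chondrocyte-like cells held 388 and 501. Neutrophil-like cells, in which C/EBPβ is well known, held 1799 and 2678. Osteoblast-like cells were lowest of the mesenchymal groups, at 167 and 87.7.

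Of the lipid genes, Lpl, the lipase that frees fatty acids from circulating triglyceride, stood at 1501 CPM in young and 2210 in old stromal-like cells. It was at 152 and 251 in fibroblast-like, 132 and 88.0 in tendon-like, 114 and 117 in pericyte-like, 55.0 and 26.0 in osteoblast-like and 7.49 and 17.7 in chondrocyte-like cells. The erythroid-like level was 6.91 and 16.8, and only the chondrocyte-like interval overlapped the erythroid-like one, in both mice. After thinning, 79.0% and 83.2% of stromal-like cells had an Lpl UMI, against 1.28% and 2.76% of erythroid-like cells.

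Fabp4, a fatty acid carrier of adipocytes and of capillary endothelium, was highest in pericyte-like cells, at 639 CPM (561 to 724) in the young animal and 581 (521 to 647) in the old one. Stromal-like cells came next at 46.6 (43.8 to 49.6) and 114 (109 to 119), and fibroblast-like cells held 9.04 and 5.03. The endothelial list summed to 3 UMIs in the pericyte-like cells of each mouse, with Cdh5, Pecam1 and Kdr at 0 in both. With cells thinned to 2000 UMIs, 34.4% of young and 22.5% of old pericyte-like cells had a Fabp4 UMI (45.7% and 33.8% unthinned), against 0.183% and 0.230% of erythroid-like cells.

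Plin2, a protein of the lipid droplet surface that many cell types make, was spread over all groups. Its level was 40.2 and 52.0 CPM in stromal-like, 44.1 and 61.9 in pericyte-like and 32.7 and 34.4 in fibroblast-like cells, and the stromal-like and pericyte-like intervals overlapped in both mice. Erythroid-like cells held 52.0 and 45.9 CPM, near the stromal-like level, and neutrophil-like cells held more (147 and 246).

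Mrap encodes an accessory protein that carries the corticotropin receptor MC2R to the cell surface and is made in adipocytes. It was at 25.1 CPM in young (23.0 to 27.3) and 53.8 in old stromal-like cells (50.5 to 57.3). No other mesenchymal group exceeded 1.66 in either mouse, and pericyte-like cells held no UMI, which allows up to 7.79 and 5.16. Mc2r itself had 33 UMIs in young and 98 in old stromal-like cells and 2 and 1 in fibroblast-like cells. Whether single cells held both Mrap and Mc2r was not tested. Mrap2, a relative of Mrap, had 0 and 1 UMI in stromal-like cells.

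**Figure D1:**
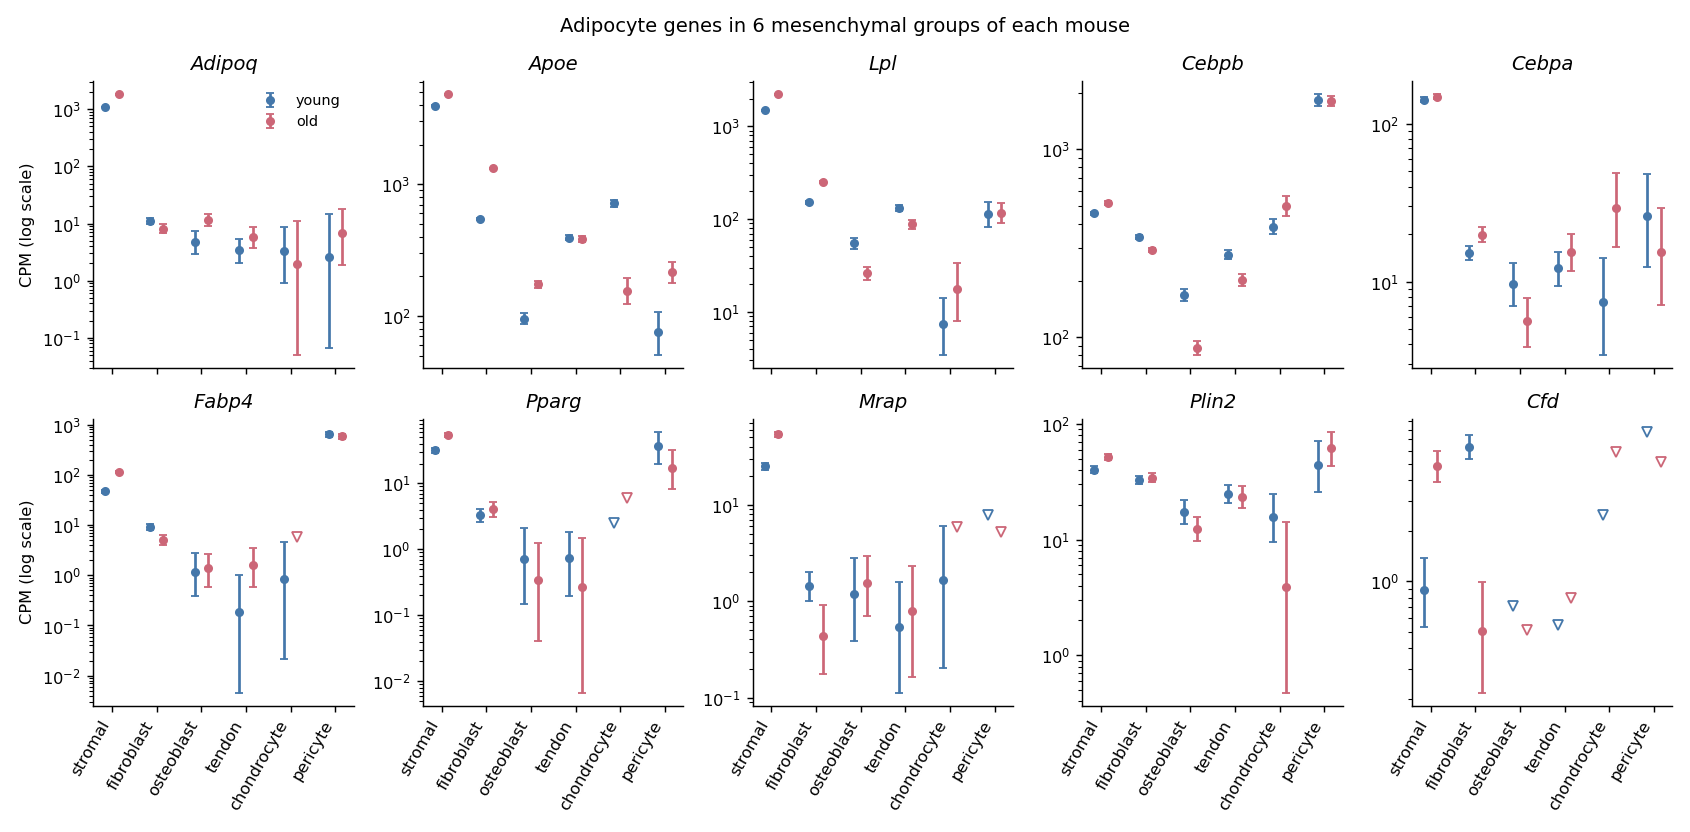
CPM (y axis, log scale) of each gene in the 6 mesenchymal groups (x axis), with 1 point per mouse and exact 95% counting intervals; open triangles mark groups with no UMI and stand at the level that 3 UMIs would give. Adipoq, Lpl, Apoe, Cebpa and Mrap were highest in stromal-like cells of both mice, while Cebpb and Fabp4 were highest in pericyte-like cells.

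The first comparison asked which of these genes set the stromal-like cells apart from the other mesenchymal cells. UMIs were summed per mouse and group, and the 12 sums were fitted together with the mouse as a block. Against the mean of the other 5 groups, 8 of the 10 genes were higher in stromal-like cells and none was lower, where 39.4% of the 13663 genes tested passed, 24.3% higher and 15.1% lower. The median log2 difference of the 10 genes was 4.21, and that of all genes tested was 0.09. For Adipoq the log2 difference was 7.77 (SE 0.22, adjusted p = 1.95e-09, edgeR's quasi-likelihood test with Benjamini-Hochberg adjustment). Lpl differed by 4.64 (SE 0.23, adjusted p = 1.02e-07), Apoe by 3.57 (SE 0.39, adjusted p = 3.75e-05) and Cebpa by 3.19 (SE 0.18, adjusted p = 2.75e-07). Plin2 also passed, with a far smaller difference of 0.74 (SE 0.16, adjusted p = 0.00399). Pparg, Mrap and Fabp4 passed as well, but a group without a UMI makes the size of their fitted difference depend on the settings. As ratios to the other 5 groups pooled, Pparg was 11.1-fold higher in the young animal (8.99 to 13.9) and 18.6-fold in the old mouse (14.7 to 23.7), Mrap 19.8-fold (14.6 to 27.6) and 75.5-fold (48.1 to 126), and Fabp4 3.48-fold (3.12 to 3.90) and 7.05-fold (6.35 to 7.83). Fabp4 did not set the stroma apart from pericyte-like cells, a small part of the pool, which held more (639 against 46.6 and 581 against 114 CPM). Nor was Plin2 above them (40.2 against 44.1 and 52.0 against 61.9 CPM). Pparg stood at 31.7 in stromal-like against 36.4 CPM in pericyte-like cells of the young animal, with overlapping intervals. In the old mouse it stood at 53.7 against 17.2. Cebpb (0.18, SE 0.17, adjusted p = 0.467) and Cfd (adjusted p = 0.132) did not pass.

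Fibroblast-like cells were the largest other group. Against them 7 of the 10 genes were higher and none lower, where 41.1% of all genes tested passed, 21.5% higher and 19.5% lower. The differences were 7.01 for Adipoq (SE 0.36, adjusted p = 2.61e-07), 4.98 for Mrap (SE 0.44, adjusted p = 1.36e-05), 3.35 for Pparg (SE 0.27, adjusted p = 7.96e-06) and 3.25 for Fabp4 (SE 0.40, adjusted p = 9.28e-05). Those of Lpl (3.06), Cebpa (2.91) and Apoe (2.14) were smaller, and Apoe passed least clearly (SE 0.62, adjusted p = 0.0177). Plin2 (0.31, adjusted p = 0.208), Cebpb (0.48, adjusted p = 0.115) and Cfd (-0.27, adjusted p = 0.897) did not pass, and Cebpb passed under 3 of the alternatives.

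Osteoblasts are the other fate of these stromal cells. Against osteoblast-like cells 9 of the 10 genes were higher and none lower, where 37.1% of all genes tested passed, 19.7% higher and 17.4% lower. The differences ran from 1.33 for Plin2 (SE 0.22, adjusted p = 0.000754) and 1.67 for Cebpb (SE 0.24, adjusted p = 0.000293) to 7.10 for Adipoq (SE 0.37, adjusted p = 3.55e-07). Lpl differed by 5.23, Apoe by 4.72, Mrap by 4.47 and Cebpa by 3.97. Pparg rested on 3 and 2 UMIs in osteoblast-like cells, and Cfd, without a UMI there, did not pass. The 3 comparisons share the stromal-like sums and are not independent of each other.

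**Figure D2:**
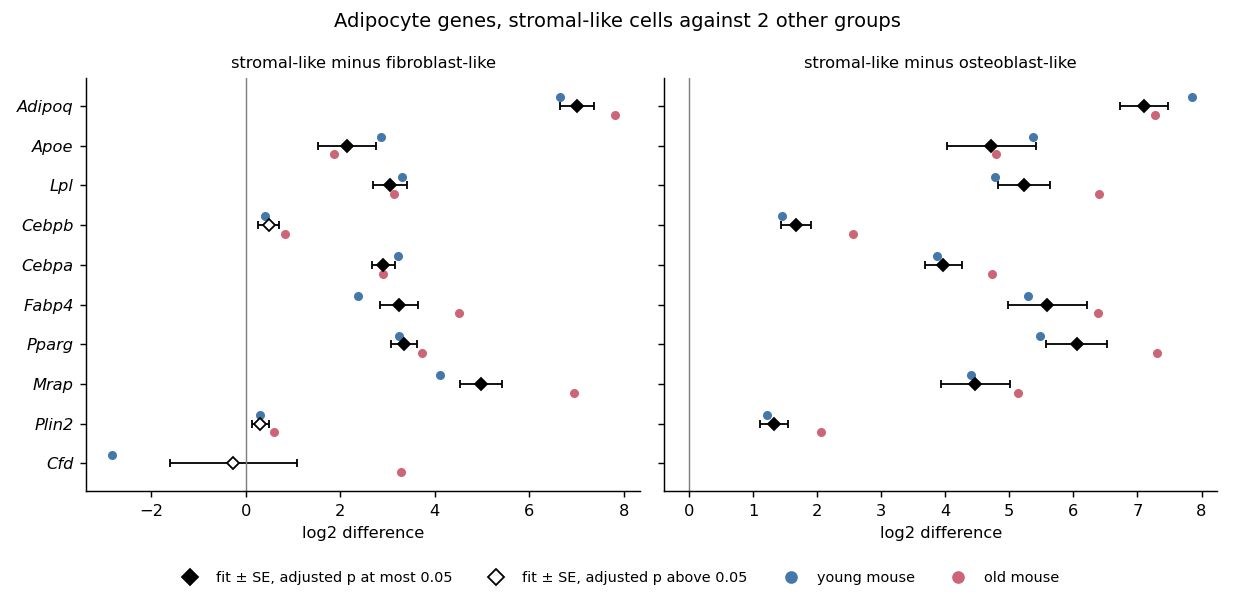
Log2 difference (x axis) of each gene (y axis) between stromal-like cells and fibroblast-like (left) or osteoblast-like cells (right); diamonds are the fit over both mice with its SE, filled where the adjusted p was at most 0.05, and circles are each mouse alone. By the fit, Adipoq differed most in both panels, and the young and old mouse lay on opposite sides of 0 only for Cfd (left), which is not drawn on the right because osteoblast-like cells held no Cfd UMI.

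Other genes of the adipocyte program were less uniformly stromal. Of 16 regulators of adipogenesis, 10 were higher in stromal-like cells than in the mean of the other groups and 1 was lower, with a median log2 difference of 0.64. Of all genes tested 24.3% were higher and 15.1% lower. They included Ebf1 (1.60, adjusted p = 2.18e-05), a factor of early fat and marrow stromal cells, Stat5a (1.42, adjusted p = 1.37e-05), Klf15 (1.34, adjusted p = 0.00209) and Zfp423 (1.26, adjusted p = 0.000742). Ebf1 was not limited to the stroma, since fibroblast-like cells held 999 and 1004 CPM and stromal-like cells 811 and 1010. Of 9 inhibitors of adipogenesis none was higher and 2 were lower, Sox9 (-1.31, adjusted p = 0.00106) and Wwtr1 (-0.99, adjusted p = 8.33e-05), where 15.1% of all genes were lower. Sox9 was lower than the mean and not than each group. It stood at 39.7 and 37.7 CPM in stromal-like, 1100.5 and 893 in chondrocyte-like and 7.79 and 5.16 in pericyte-like cells.

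Storage genes were mostly too sparse to test or did not pass. Of 16 lipid droplet genes 7 had too few UMIs to be tested, among them Plin1, Cidea and Cidec, which coat the droplet of mature adipocytes. Of the 9 tested 3 were higher and 1 lower, where 24.3% and 15.1% of all genes were. G0s2, an inhibitor of the lipase that opens the droplet, was higher by 2.95 (adjusted p = 6.56e-06), Dgat1, which makes triglyceride, by 1.08 (adjusted p = 0.00141) and Bscl2 by 0.68 (adjusted p = 0.00197), and Plin3 fell by 0.41 on the log2 scale (adjusted p = 0.0161). Of 16 genes of lipid uptake, synthesis and lipolysis 3 were higher and 6 lower, beside the same 24.3% and 15.1% of all genes. Mgll, which splits monoglycerides, was lower (-2.38, adjusted p = 5.10e-06), as were Pnpla2, the first lipase of fat breakdown (-0.95, adjusted p = 0.000732), and Fasn, the fatty acid synthase (-0.86, adjusted p = 0.000259). Pnpla2 was not lower than each group. It stood at 9.37 and 12.5 CPM in stromal-like, 171 and 145 in pericyte-like and 9.15 and 7.86 in chondrocyte-like cells.

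Among 12 adipokines and their receptors, Lep, Retn and Retnla had too few UMIs to be tested. Of the other 9 genes 5 were higher and 1 lower, where 24.3% and 15.1% of all genes were. Agt, the angiotensin precursor, was higher by 4.23 (adjusted p = 8.50e-08), Angptl4, which inhibits lipoprotein lipase, by 2.90 (adjusted p = 2.74e-06) and Rarres2, which encodes chemerin, by 2.34 (adjusted p = 3.35e-06). The adiponectin receptor gene Adipor2 was higher by 0.78 (adjusted p = 0.000135), Adipor1 did not pass (-0.20, adjusted p = 0.145), and Cdh13, the T-cadherin that binds adiponectin, was lower (-1.56, adjusted p = 0.000561). Of 12 partners of LPL, APOE and MRAP, 4 were not tested, 2 were higher and 2 were lower, beside the same shares of all genes. Gpihbp1, the endothelial anchor of LPL, had 2 and 0 UMIs in stromal-like cells. The receptors Vldlr (-1.29, adjusted p = 0.000885) and Lrp8 (-2.06, adjusted p = 0.0358) were lower. Apoc1, the neighbour of Apoe, was higher by 2.93 than in fibroblast-like cells (adjusted p = 0.000541), at 5.62 against 0.639 CPM in the young animal and 13.2 against 1.57 in the old one.

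The genes whose log2 levels over the 12 sums were most like those of Adipoq, among 13619 genes with at least 100 UMIs in all, were Cxcl9 (Pearson r = 0.993), Esm1 (0.990), Il1rn (0.989), Scgb3a1 (0.987) and BE692007 (0.986). These sums share 2 libraries and 6 groups, and the values are a description. Cxcl9, for example, stood at 131 and 295 CPM in stromal-like cells and at 1.75 and 1.76 in fibroblast-like cells. Of the 10 genes, Mrap was most like Adipoq (0.964, rank 56), and Cebpb (0.029) and Fabp4 (0.379) were least like it.

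The next question was whether the genes were held by the same stromal cells. In stromal-like cells thinned to 2000 UMIs (3111 young and 1902 old), the median cell had a UMI of 3 of the 10 genes in the young animal and of 4 in the old one, and 3.25% and 3.00% of cells had none. Cells with an Adipoq UMI more often had an Lpl UMI (88.0% against 57.6% in the young animal and 92.2% against 52.9% in the old one) and an Mrap UMI (5.24% against 1.42%, and 11.5% against 2.30%). The share with a Cebpb UMI was 44.2% against 42.0% in the young animal and 43.2% against 39.1% in the old one. Spearman's rho over cells was 0.45 and 0.55 for Adipoq with Apoe, and 0.25 and 0.40 for Adipoq with Lpl. It was 0.32 and 0.33 for Lpl with Apoe, and the pairs left, all under 0.25, were not read, as UMIs were sparse.

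UMIs of some genes were concentrated in few stromal-like cells. The 5% of cells with the most UMIs of a gene held 92.2% (young) and 82.9% (old) of the Fabp4 UMIs, 70.1% and 48.0% of the Mrap UMIs, 23.0% and 21.4% of the Adipoq UMIs and 18.0% and 16.8% of the Apoe UMIs. Low totals raise such a share, but Fabp4 had more UMIs than Mrap in each mouse and was held more narrowly. A Fabp4 UMI was found in 248 young and 323 old stromal-like cells.

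Marrow stroma is known to hold cells that lean to bone and cells that lean to fat. Stromal-like cells with a UMI of at least 2 of 5 osteo-primed markers (Alpl, Wif1, Spp1, Limch1, Col8a1) numbered 2542 in the young animal (75.0%) and 1527 in the old one (72.2%), and were compared with the remaining 848 and 587. Of the 10 genes 4 were lower in osteo-primed cells and none was higher, where 9.13% of the 13654 genes tested passed, 5.29% lower and 3.84% higher. Fabp4 stood at 25.1 CPM in osteo-primed and 136 in other cells of the young mouse, and at 70.0 and 289 in the old mouse. The counting intervals of the 2 parts did not overlap in either mouse, and the log2 difference was -2.24 (SE 0.08, adjusted p = 1.14e-15). Cfd differed by -2.26 (SE 0.37, adjusted p = 0.000102), from 8 and 11 UMIs in the young animal and 42 and 48 in the old one. Mrap stood at 23.2 against 33.2 and at 45.8 against 85.4 CPM, a difference of -0.75 (SE 0.11, adjusted p = 2.59e-05), and Cebpb at 437 against 531 and at 501 against 584, a difference of -0.27 (SE 0.06, adjusted p = 0.00359).

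The other 6 genes did not pass. Adipoq stood at 1114 against 1037 CPM in the young animal and at 1818 against 1811 in the old one (0.038, SE 0.055, adjusted p = 0.812). The log2 differences were 0.0081 for Apoe (SE 0.052), -0.078 for Lpl (SE 0.062), -0.047 for Pparg (SE 0.11), 0.091 for Cebpa (SE 0.070) and -0.035 for Plin2 (SE 0.10). Under the stricter marker rule 7 of the 10 genes were lower, Adipoq among them at -0.17 (adjusted p = 0.0162). In a fit that left out the mouse block, edgeR passed 0 of the 10 genes after adjustment and 1 by the unadjusted p at 0.05. DESeq2, which kept the block, called Fabp4 and Cfd. With cells split on 2000 UMIs each, Fabp4 and Mrap passed. The fit had 1 residual degree of freedom.

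Osteo-primed cells were deeper (median 5851 against 4132 UMIs in the young animal and 9053 against 5881 in the old one), and other marker lists moved with the split. The fibroblast list summed to 323 against 517 CPM in the young animal and 207 against 709 in the old one, the tendon list to 784 against 1477 and 816 against 1311, and the neutrophil list to 535 against 35.6 and 676 against 429. With cells split on 2000 UMIs each, 1685 of 3111 young and 893 of 1902 old stromal-like cells were osteo-primed. The size of the class therefore depended on depth. The osteoblast list was higher in osteo-primed cells of both mice (7681 against 5812 and 5576 against 3725 CPM). Bglap, a late osteogenic marker in the paper, was higher only in the young (333 against 178, but 128 against 139 in the old). The part of depth was tested only through the split on 2000 UMIs each, and that of the other lists was not tested. In the same comparison Cd36, a fatty acid transporter, was lower in osteo-primed cells (-3.35, adjusted p = 9.01e-07), as were Plin4 (-2.36, adjusted p = 0.00117), Scd1, which desaturates fatty acids (-0.84, adjusted p = 8.23e-09), and Apoc1 (-0.88, adjusted p = 0.00842), chosen after their values were seen. Of the 16 adipogenic regulators 15 were tested, none was higher and Ebf2 and Cebpd were lower, where 3.84% of all genes were higher and 5.29% lower.

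Because Fabp4 was so unevenly held, the cells that held it were described further. The limit of 5 UMIs was chosen after the values were seen, and no test was run. Stromal-like cells with at least 5 Fabp4 UMIs numbered 63 in the young animal (1.86%, 1.43 to 2.37) and 99 in the old one (4.68%, 3.82 to 5.67). After thinning, 2.06% and 3.94% of cells had at least 2 Fabp4 UMIs. Scrublet called 4 and 1 of the 63 and 99 cells as doublets. They were set beside the 3142 and 1791 cells with no Fabp4 UMI, which were shallower (median 5407 against 7777 UMIs in the young animal and 8331 against 10748 in the old one).

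Cells with Fabp4 held more of the other fat genes. Adipoq stood at 1781 against 1041 CPM in the young animal and at 3350 against 1624 in the old one, ratios of 1.71 (1.61 to 1.82) and 2.06 (1.99 to 2.13). Mrap was 9.63-fold higher in the young animal (7.63 to 12.1) and 6.39-fold in the old mouse (5.50 to 7.41). Lpl was 1.54-fold and 2.18-fold, Apoe 1.72-fold and 1.65-fold, Pparg 1.91-fold and 2.47-fold, and Plin2 1.71-fold and 3.27-fold higher. Cfd stood at 19.0 against 0.255 in the young animal and 60.9 against 0.584 in the old one, and these cells held 11 of the 19 and 70 of the 90 Cfd UMIs of the stroma. Cebpa differed in the old mouse (2.01-fold, 1.78 to 2.26) and not beyond counting error in the young (1.06-fold, 0.844 to 1.31). Cebpb was the exception, with ratios of 0.958 (0.842 to 1.09) and 0.654 (0.590 to 0.723).

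The stromal markers Lepr (ratios 0.930 and 0.910) and Cxcl12 (0.977 and 1.23) were close to level in the cells with Fabp4, and all 5 osteo-primed markers were lower, from Limch1 (0.0970 and 0.170) to Spp1 (0.604 and 0.541). The pericyte list, the group in which Fabp4 was highest, summed to 258 against 232 and 270 against 220 CPM, and the endothelial list to 5.19 against 14.1 and 5.22 against 7.40. Single pericyte markers moved apart. Des was higher in both mice, with ratios of 2.58 (1.80 to 3.58) and 1.45 (1.05 to 1.96). In the old mouse Rgs5 (1.91), Abcc9 (1.92) and Notch3 (1.19) were higher too, and Acta2 was lower (0.0415). The other pericyte ratios lay within counting error, and the part of these markers was not tested. The fibroblast list was higher in the cells with Fabp4 in both mice, at 604 against 344 and 447 against 288 CPM, and its part was not tested. The mature adipocyte list summed to 27.7 against 4.74 in the young animal and 33.1 against 4.67 in the old one. Of its droplet genes, Plin4 stood at 8.66 against 0.510 CPM (young, 5 UMIs in the cells with Fabp4) and 15.7 against 0.584 (old, 18 UMIs), while Cidec had 1 and 2 UMIs in these cells and Plin1 had 3 and 2. In pericyte-like cells the mature adipocyte list summed to more, at 80.5 and 63.7 CPM, most of it Plin4 at 77.9 and 61.9.

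**Figure D3:**
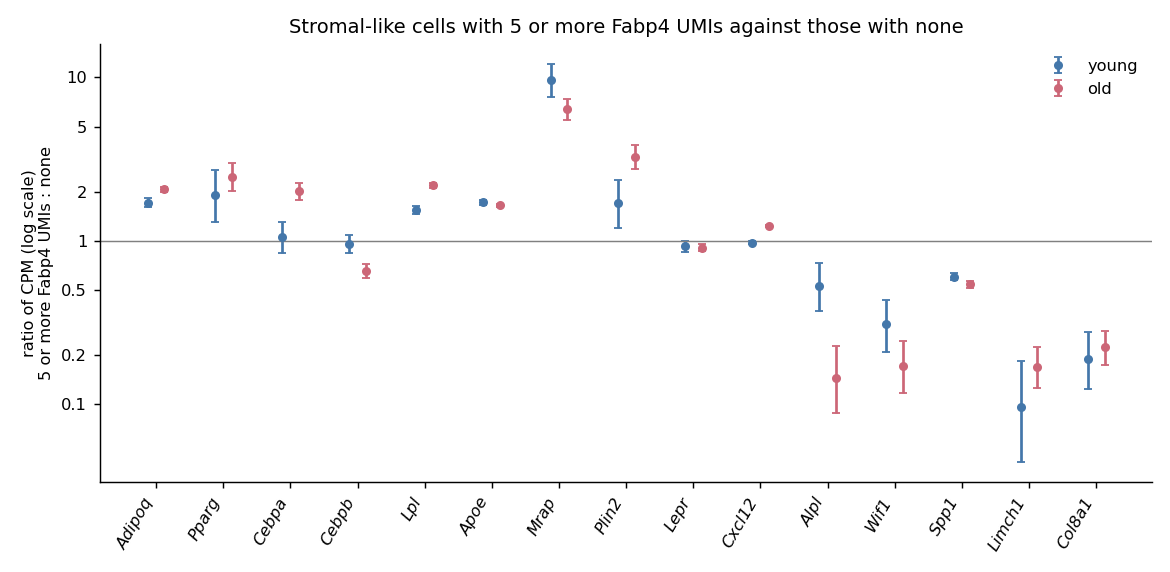
Ratio of CPM (y axis, log scale) in stromal-like cells with at least 5 Fabp4 UMIs to those with none, for 8 of the other fat genes, 2 stromal markers and the 5 osteo-primed markers (x axis), with 1 point per mouse and exact 95% counting intervals. Mrap was 9.63-fold and 6.39-fold higher, and the osteo-primed markers Alpl to Col8a1 were lower in both mice.

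CD24 was the protein the study read on the same cells, and CD24+ cells were compared with CD24- cells within the stromal-like group. There were 207 CD24+ cells in the young animal (6.11%, 5.32 to 6.97) and 70 in the old one (3.31%, 2.59 to 4.17). More cells, 317 and 97, lay within 1.5-fold of the CD24 threshold, so the classes depended on where it fell. CD24+ cells were deeper (median 9618 against 5293 UMIs in the young animal and 11135 against 8403 in the old one). The antibody counts were not scaled to depth. Of the 9 genes tested (Cfd had too few UMIs), 4 were lower in CD24+ cells and none was higher, where 7.09% of the 13820 genes tested passed, 2.5% lower and 4.59% higher. The median log2 difference of the 9 was -0.58 and that of all genes -0.02. Adipoq stood at 653 in CD24+ against 1155 CPM in CD24- cells of the young and at 1048 against 1856 in the old mouse, a log2 difference of -0.77 (SE 0.08, adjusted p = 0.00193). Apoe differed by -0.71 (SE 0.07, adjusted p = 0.00127), Lpl by -0.58 (SE 0.08, adjusted p = 0.00545) and Cebpa by -0.48 (SE 0.11, adjusted p = 0.0352). Adipoq, Apoe and Lpl were lower in CD24+ cells by nearly the same factor in each mouse, with ratios of 0.565 and 0.564, 0.603 and 0.577, and 0.637 and 0.654.

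Mrap (-0.71, adjusted p = 0.0535), Plin2 (-0.54, adjusted p = 0.142), Pparg (-0.46, adjusted p = 0.130), Cebpb (-0.25, adjusted p = 0.184) and Fabp4 (-0.95, adjusted p = 0.298) did not pass. For Fabp4 the mice stood apart, with a ratio of 0.964 (0.783 to 1.18) in the young animal and 0.122 (0.0650 to 0.209) in the old one, the latter from 13 UMIs in CD24+ cells. With doublets removed 7 of the 9 genes were lower, and with cells near the CD24 threshold left out 4 were. In a fit that left out the mouse block, edgeR passed 0 of the 9 after adjustment and 5 by the unadjusted p at 0.05, and DESeq2, which kept the block, called 3. Under the stricter marker rule 2 of 10 were lower, and Lpl (-0.29, adjusted p = 0.139) and Cebpa (-0.14, adjusted p = 0.810) were no longer among them.

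Markers of the stroma itself and of other cells differed between the CD24 classes too. The stromal list summed to 17404 CPM in CD24+ against 29893 in CD24- cells of the young and 16663 against 26570 in the old mouse. The ratios of Lepr were 0.526 and 0.650 and those of Cxcl12 0.585 and 0.617. The tendon list was higher in CD24+ cells (2199 against 757 and 2535 against 834), as were the erythroid list (82.7 against 13.3 and 177 against 17.0) and, in the young mouse, the B-lineage list (84.4 against 9.41, but 137 against 439 in the old). The chondrocyte list was higher too (139 against 33.1 and 137 against 39.0), and the neutrophil list went opposite ways (848 against 386 and 8.97 against 657). Without cells that held a UMI of an erythroid or B-lineage marker, which left 153 and 32 CD24+ cells, 3 of the 9 genes were lower, Cebpa no longer passed (-0.34, adjusted p = 0.305) and Cebpb, at 0.16, had the opposite sign. The parts of the tendon, chondrocyte and neutrophil lists were not tested. Alpl, an osteo-primed marker, was higher in CD24+ cells (1.46, adjusted p = 0.000293), and of the other 4 markers Col8a1 was lower and 3 did not pass.

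**Figure D4:**
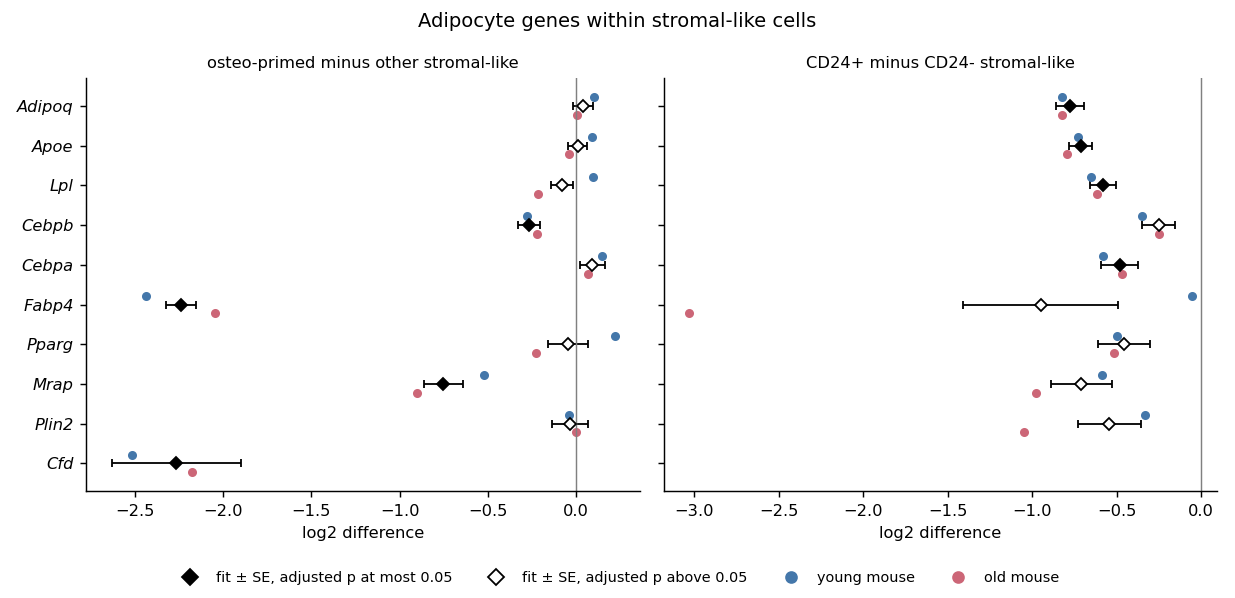
Log2 difference (x axis) of each gene (y axis) within stromal-like cells, between osteo-primed and other cells (left) and between CD24+ and CD24- cells (right); diamonds are the fit over both mice with its SE, filled where the adjusted p was at most 0.05, and circles are each mouse alone. Fabp4 and Cfd fell furthest on the left, where Adipoq lay near 0, and Adipoq, Apoe, Lpl and Cebpa passed on the right, where Cfd is not drawn because it was not tested.

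The last comparison set the old mouse beside the young within stromal-like cells. With 1 mouse an age there was no test, and age, animal and library cannot be told apart. Of the 10 genes 5 were more than 1.5-fold higher in the old mouse and none was as much lower, where 6.69% of 14671 genes with enough UMIs were past that fold upward and 5.58% downward. The median log2 ratio of all genes was 0.02. The old to young ratios were 1.65 for Adipoq (1.63 to 1.68), 1.70 for Pparg (1.54 to 1.87), 2.14 for Mrap (1.93 to 2.38), 2.45 for Fabp4 (2.27 to 2.65) and 5.53 for Cfd (3.34 to 9.60). Lpl lay just under the fold at 1.47 (1.45 to 1.49), and Plin2 (1.29), Apoe (1.22), Cebpb (1.14) and Cebpa (1.05, 0.994 to 1.10) followed. The intervals cover counting error only, and no spread between mice of an age is known.

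The same 5 genes were past the fold within both parts of the stroma. Among osteo-primed cells the ratio was 1.63 for Adipoq, 1.59 for Pparg, 1.98 for Mrap and 2.79 for Fabp4, and among the other stromal-like cells it was 1.75, 2.17, 2.57 and 2.13. Cfd was at 6.19 in the first and 4.89 in the second. Lpl was at 1.41 in the first and 1.74 in the second. After thinning to 2000 UMIs the log2 ratios were 0.60 for Adipoq, 0.90 for Pparg, 1.34 for Mrap and 0.99 for Fabp4, and 4 of the 9 genes with enough UMIs were past the fold. Adipoq, at 0.73 before thinning, was only just past it. In fibroblast-like cells the ratio was 0.743 for Adipoq (0.596 to 0.921), 0.556 for Fabp4 (0.425 to 0.723) and 0.303 for Mrap (0.114 to 0.695). These lay on the other side of 1 from the stroma, but the ratio was 1.65 for Lpl (1.58 to 1.72) and 2.44 for Apoe (2.38 to 2.49). The Mrap ratio rested on 34 young and 7 old UMIs. Old fibroblast-like cells were deeper than young ones (median 12378.5 against 7665.5 UMIs). The part of depth and of free RNA in the Adipoq ratio was not tested. In pericyte-like cells Fabp4 was level at 0.910 (0.770 to 1.08).

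Genes around the set differed between the mice to varying degrees. Mc2r, the partner of Mrap, was 3.46-fold higher in old stromal-like cells (2.31 to 5.31), Apoc1 2.34-fold (1.88 to 2.94) and Cd36 2.53-fold (1.61 to 4.08), whereas Angptl4, the inhibitor of LPL, was lower at 0.628 (0.591 to 0.667). Ebf1 was at 1.24, Cebpd at 1.25 and Klf15 at 1.48. The B-lineage list summed to 17.8 CPM in young and 425 in old stromal-like cells and the neutrophil list to 438 and 626, while the stromal list summed to 28492 and 26092. The part of those lists in the ratios was not tested.

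**Figure D5:**
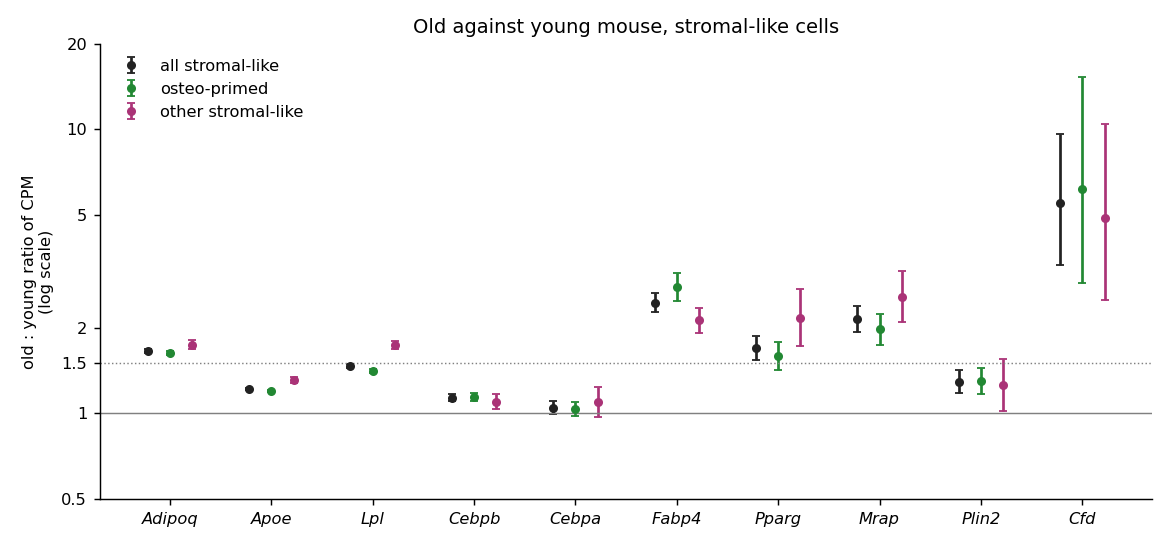
Old to young ratio of CPM (y axis, log scale) of each gene (x axis) in all stromal-like cells, in osteo-primed cells and in other stromal-like cells, with exact 95% counting intervals; the dotted line is 1.5. Adipoq, Fabp4, Pparg, Mrap and Cfd lay above the line in all 3, and Cebpa and Cebpb lay near 1.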

How the data were processed

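mRNA and CD24 antibody counts were measured in 1 young and 1 old mouse. The values are raw counts of UMIs per gene and cell as deposited by the authors, unnormalized, with a header naming Cell Ranger 6.1.1, and the build mm10 is named in the submitters' processing notes. Barcodes with under 200 genes or over 20% mitochondrial UMIs were left out here, as in the study, which removed 1308 young and 1122 old barcodes. Doublets called by Scrublet (scanpy 1.11.5, 269 and 57 cells) were kept and their removal was an alternative. Cells were grouped by marker UMIs. A cell was CD24+ above a threshold of 318 (young) and 404 (old) antibody UMIs, set per library by Otsu's method on the log counts.

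UMIs were summed per mouse and group and tested on all genes passing edgeR's filterByExpr, with TMM factors, the quasi-likelihood F test (edgeR 4.0.16, R 4.3.3, two-sided) and Benjamini-Hochberg adjustment over all of them at 0.05. The 12 group sums left 5 residual degrees of freedom and the 4 sums within the stroma 1. The mouse was a block, because its groups were cells of the same animal, and p-values rest on 2 mice. DESeq2 1.42.0 was an alternative. The fits were tested on simulated data. Intervals are exact Poisson and Clopper-Pearson intervals or, for ratios, exact conditional binomial intervals at 95% (SciPy 1.17.1), and a count of 0 allows up to 3 UMIs. Thinning left out 279 young and 212 old stromal-like cells under 2000 UMIs. Free RNA is counted with the cell.

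The 10 genes, the marker lists and the gene lists were chosen with earlier results of these data known. All 10 genes are named, with at most 4 genes per list by size of the difference from the other 5 groups, partners of a member, and the 5 genes most like Adipoq. Alternatives covered the tool, scaling, filter, block, doublets, mitochondrial limit, marker rule, depth and both limits within the stroma, and 2 more were added after seeing the data.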

Additional observations from a re-analysis of the deposited data

Results flagged for a closer look

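Lpl and Apoe differed in opposite directions between osteo-primed and other stromal-like cells in the 2 mice, each beyond counting error, and the difference between the mice was not tested. The ratio of Lpl was 1.07 (young) and 0.861 (old), and that of Apoe was 1.06 (young) and 0.973 (old). Cfd was at 0.140 of the fibroblast-like level in young stromal-like cells and at 9.70 times it in old ones, likewise not tested. In barcodes removed by the filter, which no comparison used, the young library held 109 Adipoq UMIs and the old library 96, or 68.2 and 51.1 CPM.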

How the results depend on the processing

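In the comparisons between groups, 91 of 92, 95 of 99 and 96 of 97 values of single genes stayed the same under the alternatives (against the other 5 groups, fibroblast-like and osteoblast-like cells in turn). The same means an unchanged direction and side of the threshold, or, for values of 1 mouse alone, which had no p-value, an unchanged direction only. The reversed value was Cfd against fibroblast-like cells in the old mouse alone (3.28, and -2.84 in the young). With each cell thinned to 2000 UMIs fewer genes passed, 3492 against the other groups and 2925 against osteoblast-like cells, where 5385 and 5071 passed before. The replicate block mattered within the stroma. Without it 240 genes passed for CD24 (980 with it) and 18 for the osteo-primed split (1246 with it), while 5051, 5019 and 4711 passed between groups. For CD24, 562 passed by DESeq2, 1810 with no filter on low counts, 324 under the stricter marker rule, 480 after thinning and 432 without cells holding an erythroid or B-lineage marker, and 91 of 108 single-gene values were the same. Reversed there were Cebpb without those cells (0.16) and Plin2 after thinning (0.077). For the osteo-primed split, 220 passed by DESeq2, 754 under the stricter rule and 553 after thinning, and 95 of 119 single-gene values were the same. Of its reversed values, those of Adipoq were -0.17 (stricter rule), -0.010 (thinned sums) and -0.016 (split on thinned UMIs), those of Cebpa -0.082 (stricter rule) and -0.21 (thinned), and those of Apoe -0.027 (10% mitochondrial limit), -0.13 (stricter rule), -0.025 (thinned) and -0.019 (at least 3 markers). In the young and the old mouse alone, Apoe was at 0.088 and -0.040, Pparg at 0.22 and -0.23, Lpl at 0.093 and -0.22 and Plin2 at -0.039 and 0.00059, and Plin2 was at 0.27 with at least 3 markers. The causes were not tested. In all, 5 genes stayed past 1.5-fold between the mice in every setting but thinning, which tested 9 and left 4.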
